A study of Arabidopsis thaliana with 11 samples.

Results

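Embryo expression was described for the window of chromosome 1 around FHE1, taken as every probe set of the ATH1 chip that the platform annotation gives to a single gene with a locus from AT1G43500 to AT1G51000. The rule found 269 probe sets for 266 genes, out of 22746 probe sets tested, and the gene table used for order and names places 671 genes in the same window. The samples were wild-type torpedo-stage embryos of 7 natural accessions of Arabidopsis thaliana, hybridised to 11 arrays. The ZLL-dependent accessions were Fe-1 (3 arrays), Ler-0, Nw-0 and Bay-0 (1 array each), and the ZLL-independent accessions were Van-0, Ts-1 (1 array each) and Col-0 (3 arrays). No zll mutant or treated embryo was included, and embryos of many seeds were pooled in each sample. The study classes an accession by whether its shoot stem cells need ZLL. By the study's account Ler carries the erecta mutation and Fe-1 does not. Labels disagree for 2 of the single arrays: Ler-0 has Ler-1 as its source, and Ts-1 appears once as Tossa del Mar-0.

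ZLL (ZWILLE, also AGO10) is an ARGONAUTE protein that binds small RNAs and is known for keeping the stem cells of the embryonic shoot meristem from differentiating. How far a plant depends on it varies between accessions, and the study mapped modifier loci, called FLETSCHE (FHE), in progeny of Ler and Col. FHE1 is one of these loci, and a modifier could be any gene of such a mapped region, so all measured genes of the window are described, whatever their function. The chip reads a transcript with a set of short probes taken from Col-0, and whether other accessions carry sequence differences under these probes was not tested.

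Values are log2 signals after RMA, so a difference of 1 is a change of 2-fold. Array medians lay between 7.57 and 7.71, at 7.57 to 7.59 for Col-0 and at 7.63 to 7.71 for Fe-1 and Ler-0. The annotation used here names none of the 10 embryo marker genes looked for, so embryo identity was not checked. The seed coat genes BAN and DFR, both of flavonoid synthesis, were not even across arrays. BAN was at 8.77 in Fe-1 replicate 2, at 7.40 in Fe-1 replicate 3 and at 7.61 in Van-0, and between 4.67 and 5.95 on the other 8 arrays. DFR was at 9.51 and 7.53 in Fe-1 replicates 2 and 3, at 7.97 in Ler-0 and at 7.43 in Van-0, and between 5.28 and 6.33 on the others. The endosperm genes AGL62 and IKU2 were between 3.53 and 4.0 on all arrays, below every array's lower quartile. In such bulk samples fewer cells of a type and less RNA per cell cannot be told apart.

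The genes of the window varied among accessions about as often as genes elsewhere on the chip, or slightly less. In a limma fit with 1 mean per accession, 68 of the 269 probe sets (25.3%) passed an F test over the 7 accessions at an adjusted p under 0.05, against 31.0% of all probe sets and 32.5% of the probe sets on the rest of chromosome 1. The range between the highest and the lowest accession mean had a median of 0.45 in the window and 0.48 over the chip. It reached 3-fold for 12 probe sets (4.46%, with 6.60% over the chip) and 2-fold for 37 (13.8%, with 16.7% over the chip). For 5 accessions the spread was not measured, and the fit assumes that their single arrays vary as the Fe-1 and Col-0 replicates do.

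The comparison that the study set beside its map positions was Fe-1/Ler-0 against Col-0. At 3-fold or more with an adjusted p under 0.05 (limma), 2 window probe sets passed (0.743%), where the background over the chip was 0.703%. These were scpl44 and AT1G48180, both higher in Fe-1/Ler-0 (background 0.242%). None was lower by 3-fold (background 0.462%), the largest negative log2 difference being -0.94. Without the fold limit 35 passed (13.0%, background 12.3%), with 22 higher in Fe-1/Ler-0 (background 7.69%) and 13 lower (background 4.65%), and 75 had an unadjusted p under 0.05 (27.9%, background 29.1%). With each array centred on its median the number was again 35, but with 16 higher and 19 lower. Fe-1/Ler-0 and Col-0 arrays did not overlap for 73 probe sets (27.1%), the same share as over the chip (27.1%). The median log2 difference over the window was 0.07, against 0.06 over all probe sets.

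**Figure D1:**
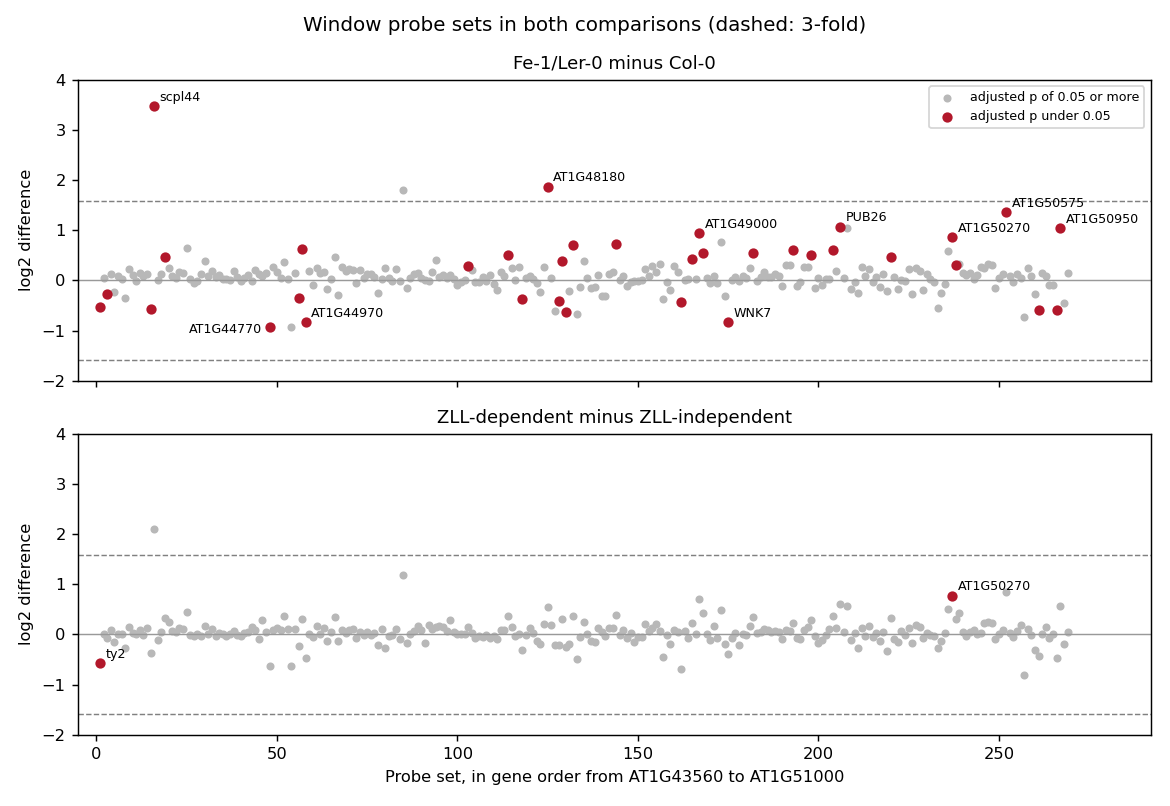
Log2 difference of each of the 269 window probe sets, in gene order, for Fe-1/Ler-0 minus Col-0 (top) and ZLL-dependent minus ZLL-independent accessions (bottom). Red points have a limma adjusted p under 0.05 and dashed lines mark 3-fold. The red points lie along most of the window, with scpl44 at 3.47 and AT1G48180 at 1.87 above the upper line in the top panel and none past a line in the bottom panel.

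The largest difference of the window was that of scpl44 (AT1G43780), serine carboxypeptidase-like 44, a member of an enzyme family that holds peptidases and acyltransferases. Its signal was 9.95, 10.04 and 9.76 in the Fe-1 replicates and 8.02 in Ler-0, against 6.12, 6.0 and 5.79 in the Col-0 replicates. Every Fe-1 and Ler-0 array lay above every Col-0 array, with Ler-0 between the other accessions and Col-0. The means were 9.44 ± 0.96 in Fe-1/Ler-0 (SD, n = 4) and 5.97 ± 0.17 in Col-0 (SD, n = 3), a log2 difference of 3.47 ± 0.47 (SE) or 11.1-fold, with a limma adjusted p of 0.0048. The signal was also high in Nw-0 (9.79), Bay-0 (9.27), Ts-1 (9.48) and Van-0 (9.43), so that Col-0 stood alone and the classes overlapped. In the accession fit each of the other 6 accessions was above Col-0, from 4.13-fold for Ler-0 (limma adjusted p = 0.000209) to 15.4-fold for Fe-1 (limma adjusted p = 8.59e-07). BAN was at 5.07, 8.77 and 7.40 in the Fe-1 replicates and 5.26 in Ler-0, against 4.67, 5.95 and 5.0 in the Col-0 replicates, and its part in the difference was not tested. Fe-1 replicates 2 and 3 were highest in BAN among these arrays. Without them the log2 difference of scpl44 was 3.01 and the limma adjusted p 0.0726, in a fit of 5 arrays.

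AT1G48180, an unknown protein in the study's annotation, was at 7.02, 7.04 and 7.16 in the Fe-1 replicates and at 5.30 in Ler-0, against 4.73, 4.83 and 4.71 in the Col-0 replicates. The groups did not overlap, but Ler-0 was nearer to Col-0 than to Fe-1. The mean was 6.63 ± 0.89 in Fe-1/Ler-0 (SD, n = 4) and 4.76 ± 0.07 in Col-0 (SD, n = 3), a log2 difference of 1.87 ± 0.43 (SE) or 3.65-fold with a limma adjusted p of 0.0333. That call was lost without any one of the Fe-1 or Col-0 arrays, with adjusted p up to 0.119, and with accession as a random block (adjusted p = 0.144), and without the Ler-0 array the adjusted p was 1.74e-06. Among the other accessions Ts-1 had the highest signal of all (7.38), Van-0 was intermediate (6.06), and Nw-0 (4.98) and Bay-0 (5.08) were near Col-0. High and low values were thus found in both ZLL classes. Taken singly, Ts-1 was 6.14-fold, Fe-1 4.96-fold and Ler-0 1.45-fold above Col-0 (limma adjusted p of 1.08e-05, 1.74e-06 and 0.0146), and the Ts-1 array had BAN at 5.05.

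Of the 35 probe sets past an adjusted p of 0.05 in this comparison, 11 passed without any single array, 9 with the higher and 2 with the lower level in Fe-1/Ler-0. Of these, 7 also passed when the accession was a random block: scpl44, AT1G50575, AT1G50950, AT1G50270, CHR18 and AT1G44960, all higher, and AT1G44770, lower. The estimated correlation within an accession was 0.335 here. Col-0 was the only accession on its side, so the block rests on Fe-1 and Ler-0 and cannot gauge how accessions vary on the Col-0 side. Of the 35, the other 24 were lost without at least 1 array. Leaving out Fe-1 replicates 2 and 3, highest in BAN among these arrays, left 5 that passed: AT1G50575, AT1G50950, AT1G50270, CHR18 and AT1G44770. That fit holds only 5 arrays, 1 of them Fe-1, and keeps Ler-0, with DFR at 7.97. Among those lost, some log2 differences grew (AT1G44960 from 0.63 to 0.67, AT1G43770 from -0.56 to -0.63). Others shrank (AT1G48180 from 1.87 to 1.40, AT1G49490 from 0.60 to 0.41). Whether seed coat signal or the smaller number of arrays removed these calls was not tested. How many probe sets over the chip pass in these settings was not counted, so these numbers have no background beside them.

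AT1G50575 had the lowest adjusted p of the window in this comparison. Its signal was 11.34, 11.23 and 11.24 in Fe-1 and 11.05 in Ler-0, against 9.91, 9.96 and 9.71 in Col-0, a log2 difference of 1.35 ± 0.10 (SE), 2.56-fold, with a limma adjusted p of 0.000357. The groups were well apart, and the remaining accessions fell on one or the other level: Nw-0 (11.43) and Van-0 (11.34) were with Fe-1 and Ler-0, and Bay-0 (10.05) and Ts-1 (10.09) were with Col-0. The gap between the 2 levels was 0.96, while the whole range of accession means was 1.57. Each level held accessions of both ZLL classes.

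CHR18 (AT1G48310), chromatin remodeling factor 18 of the SNF2 family of helicase-like proteins, also had 2 levels. It was at 9.61, 9.61 and 9.70 in Fe-1 and 9.66 in Ler-0, against 8.94, 8.88 and 9.0 in Col-0, and the log2 difference was 0.70 ± 0.07 (SE), with a limma adjusted p of 0.00104. Ts-1 (9.59) was at the level of Fe-1 and Ler-0, and Nw-0 (9.04), Bay-0 (9.08) and Van-0 (8.95) were at that of Col-0. Taken singly, Ts-1 was 1.57-fold above Col-0 (limma adjusted p = 0.00783).

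AT1G50950 was at 7.38, 7.14 and 7.26 in Fe-1 and 7.42 in Ler-0, against 6.35, 6.28 and 6.17 in Col-0, a log2 difference of 1.04 ± 0.09 (SE) or 2.05-fold, with a limma adjusted p of 0.000848. All other accessions were between 6.98 (Nw-0) and 7.52 (Van-0), so Col-0 was alone at the low end. AT1G44960 had the same order, with Fe-1/Ler-0 arrays between 7.64 and 7.86, Col-0 arrays between 7.02 and 7.17 and the rest between 7.42 and 7.79, and a log2 difference of 0.63 ± 0.08 (SE, limma adjusted p = 0.00369). Without Fe-1 replicates 2 and 3, highest in BAN, its log2 difference was 0.67 and its limma adjusted p 0.053, in a fit with fewer arrays. AT1G44770 had the reverse order, with 9.93, 9.93 and 9.86 in Fe-1 and 9.96 in Ler-0, against 10.87, 10.74 and 10.96 in Col-0, a log2 difference of -0.94 ± 0.08 (SE, limma adjusted p = 0.000604). Here Col-0 was alone at the high end, above Van-0 at 10.31 and the rest between 9.84 and 10.18.

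**Figure D2:**
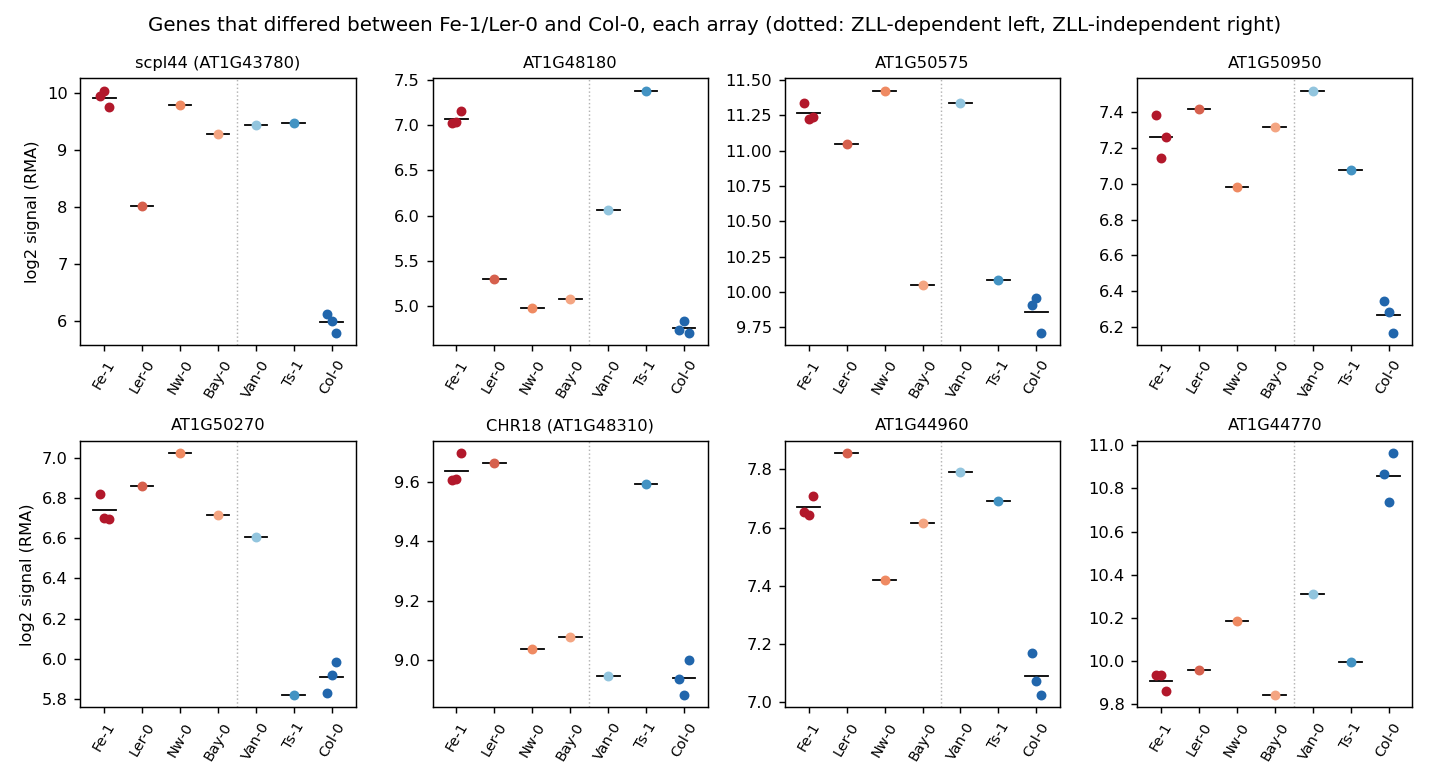
RMA log2 signal of each array (points) and the accession mean (lines) for scpl44, AT1G48180 and the 6 other genes that passed without any single array and with accession as a random block. The 4 ZLL-dependent accessions are left of the dotted line and the 3 ZLL-independent ones right of it, and each panel has its own scale, not starting at 0. Col-0 stands apart from all others for scpl44, AT1G50950, AT1G44960 and AT1G44770, while Ts-1 and Fe-1 are together at the high end for AT1G48180 and CHR18.

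Another 4 probe sets passed without any single array but not with accession as a random block. AT1G49740 had arrays between 10.85 and 10.93 in Fe-1/Ler-0 and between 10.14 and 10.46 in Col-0, with a log2 difference of 0.60 (limma adjusted p = 0.00608). AT1G49245 was at 9.73 to 9.97 in Fe-1/Ler-0 and 9.21 to 9.44 in Col-0, a difference of 0.54 (limma adjusted p = 0.00928), and AT1G48230 at 10.63 to 10.74 and 10.29 to 10.34, a difference of 0.39 (limma adjusted p = 0.00927). AT1G43770 was lower, at 5.56 to 5.70 in Fe-1/Ler-0 and 6.06 to 6.42 in Col-0, a difference of -0.56 (limma adjusted p = 0.0149). None of these 4 ranges overlapped, and their adjusted p with a random block lay between 0.0547 and 0.108.

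Among the 24 that did not pass without some array, PUB26 (AT1G49780), a plant U-box protein of the E3 ubiquitin ligases, had the largest difference after AT1G48180. It was at 8.51, 8.39 and 8.38 in Fe-1 and 7.70 in Ler-0, against 7.19, 7.37 and 6.96 in Col-0, a log2 difference of 1.07 ± 0.20 (SE), 2.10-fold, with a limma adjusted p of 0.0164. All Fe-1 and Ler-0 arrays were above Col-0, Ler-0 by the least, and the other 4 accessions were between 7.65 and 8.03. The call was lost when Fe-1 replicate 2 or 3, or Col-0 replicate 1 or 3, was left out, with adjusted p up to 0.0756. AT1G49000 followed, at 7.14, 6.91 and 7.13 in Fe-1 and 6.44 in Ler-0, against 5.94, 6.06 and 5.91 in Col-0, with a log2 difference of 0.94 (limma adjusted p = 0.0147). Its groups did not overlap either, and it did not pass without Col-0 replicate 1 or 3 (adjusted p up to 0.0667). The rest of the 24 had log2 differences of 0.28 to 0.83 in size.

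Of the genes of the 24 that carry a name, SEU (AT1G43850), SEUSS, a transcriptional co-regulator of floral and embryo development, was higher in Fe-1/Ler-0. It was at 9.98, 10.22 and 10.30 in Fe-1 and 10.36 in Ler-0, against 9.81, 9.74 and 9.68 in Col-0, without overlap (log2 difference 0.47 ± 0.10, SE; limma adjusted p = 0.0246). Nw-0, Bay-0 and Van-0 were at 10.10 to 10.22 and Ts-1 was at 9.83, beside Col-0. Its call was lost without Fe-1 replicate 2 or 3 or any Col-0 array (adjusted p up to 0.1).

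WNK7 (AT1G49160), a kinase of the WNK (with no lysine) family, was lower, at 6.95, 7.0 and 6.83 in Fe-1 and 7.72 in Ler-0, against 7.80, 7.91 and 8.16 in Col-0 (log2 difference -0.83 ± 0.22, SE; limma adjusted p = 0.0477). Fe-1 was the low accession, while Ler-0 was only just below the Col-0 arrays and Bay-0 was highest at 8.47. ETFALPHA (AT1G50940), the alpha subunit of the mitochondrial electron transfer flavoprotein, was at 9.54, 9.60 and 9.55 in Fe-1 and 10.02 in Ler-0, against 10.34, 10.22 and 10.25 in Col-0 (log2 difference -0.59 ± 0.13, SE; limma adjusted p = 0.0261). GH9C1 (AT1G48930), a glycosyl hydrolase of the family of endoglucanases that act on cell walls, was at 9.02, 9.25 and 9.36 in Fe-1 and 9.37 in Ler-0, against 9.60, 9.63 and 9.82 in Col-0 (log2 difference -0.43 ± 0.11, SE; limma adjusted p = 0.0408). For all 3 genes Fe-1/Ler-0 arrays lay below all Col-0 arrays, and all 3 calls were lost without any one of the Fe-1 or Col-0 arrays, with adjusted p up to 0.172.

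The comparison of ZLL-dependent with ZLL-independent accessions took all 11 arrays with equal weight. Fe-1 gave 3 of the 6 dependent arrays and Col-0 3 of the 5 independent ones. Class differences therefore lean on Fe-1 and Col-0 and are not means over accessions. No probe set of the window passed at 3-fold or more with an adjusted p under 0.05 (limma; background 0.0528%), and 41 had an unadjusted p under 0.05 (15.2%, background 17.4%). Without the fold limit 2 passed (0.743%, background 0.448%): AT1G50270, higher in the dependent class, and ty2, lower. The classes did not overlap for 6 probe sets (2.23%, background 2.14%), of which AT1G49000 and AT1G50270 were higher (background 1.26%) and ty2, AT1G48450, GH9C1 and AT1G50750 lower (background 0.875%) in the dependent class. The median log2 difference was 0.03 both in the window and over the chip. Arrays of the same accession are not independent samples of a class: their estimated correlation was 0.60, and neither probe set passed with accession as a random block or with 1 mean per accession.

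AT1G50270 was at 6.82, 6.70 and 6.70 in Fe-1, 6.86 in Ler-0, 7.02 in Nw-0 and 6.72 in Bay-0, against 6.61 in Van-0, 5.82 in Ts-1 and 5.83, 5.92 and 5.99 in Col-0. The classes did not overlap, but Van-0 was beside the dependent accessions and the wide gap, of 0.70, lay between Van-0 and the group of Ts-1 and Col-0. The difference between the classes was 0.77 ± 0.14 (SE), with a limma adjusted p of 0.0411, which was lost without Bay-0, Ts-1 or any Fe-1 or Col-0 array (up to 0.126) and was 0.332 with a random block. In Fe-1/Ler-0 against Col-0 the difference was 0.86 ± 0.08 (SE, limma adjusted p = 0.000857), with no overlap. The next gene, AT1G50280, divided the accessions in the same way, with the same 5 accessions at 8.20 to 8.47 and Ts-1 and Col-0 at 7.83 and 7.91. Its difference between the classes, 0.32, had a limma adjusted p of 0.0863.

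The second gene, ty2 (AT1G43560), thioredoxin Y2, a plastid thioredoxin, was at 9.26, 9.23 and 8.91 in Fe-1, 9.08 in Ler-0, 9.29 in Nw-0 and 8.98 in Bay-0, against 9.70 in Van-0, 9.78 in Ts-1 and 9.79, 9.78 and 9.41 in Col-0. The classes did not overlap, and Col-0 replicate 3 was the independent array nearest to the dependent ones. The difference was -0.57 ± 0.10 (SE), with a limma adjusted p of 0.0368, which was lost without Bay-0, Col-0 replicate 1 or 2 or any Fe-1 array (up to 0.114) and was 0.491 with a random block. Over the 7 accessions its F test had an adjusted p of 0.0529. In Fe-1/Ler-0 against Col-0 the difference was -0.54 (limma adjusted p = 0.0357).

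The genes that did not overlap but did not pass between classes had small to moderate differences. AT1G49000 was 0.71 higher in dependent accessions (limma adjusted p = 0.0864), and GH9C1 was 0.69 lower (limma adjusted p = 0.121). GH9C1 was lowest in Nw-0 (8.18) and highest in Van-0 (10.01). AT1G50750 was 0.44 lower and AT1G48450 0.15 lower (limma adjusted p of 0.0927 and 0.175). scpl44 and AT1G48180, past the threshold in Fe-1/Ler-0 against Col-0, had class differences of 2.11 and 0.55 with limma adjusted p of 0.187 and 0.682. Each Fe-1 and Col-0 replicate counts as 1 array in these differences, so their size and sign need not hold for accession means. The classes overlapped for both genes, with Van-0 and Ts-1 at 9.43 and 9.48 for scpl44. For AT1G48180 the highest accession was Ts-1 (7.38), of the independent class.

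The accessions were then taken singly, since many genes of the window set a single accession apart. For the 68 probe sets past the F test the largest gap in the order of the 7 accession means was located. It set 1 accession apart from the other 6 for 43 probe sets (63.2%, and 55.7% over the chip) and left 2 or more on each side for 25. Col-0 was the one apart for 14 (20.6%, and 12.6% over the chip), 6 times above and 8 times below the rest, and the share of the other accessions lay on either side of that over the chip. Ler-0 was the one apart for 9 (13.2%, and 14.1% over the chip), Fe-1 for 6 (8.82%, and 7.96%), Nw-0 for 5 (7.35%, and 4.72%), Bay-0 for 5 (7.35%, and 5.31%), Van-0 for 2 (2.94%, and 6.22%) and Ts-1 for 2 (2.94%, and 4.71%). For none of the 68 did the gap divide the accessions by ZLL class, as it did for 47 of the 7056 probe sets past the F test over the chip (0.666%).

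**Figure D3:**
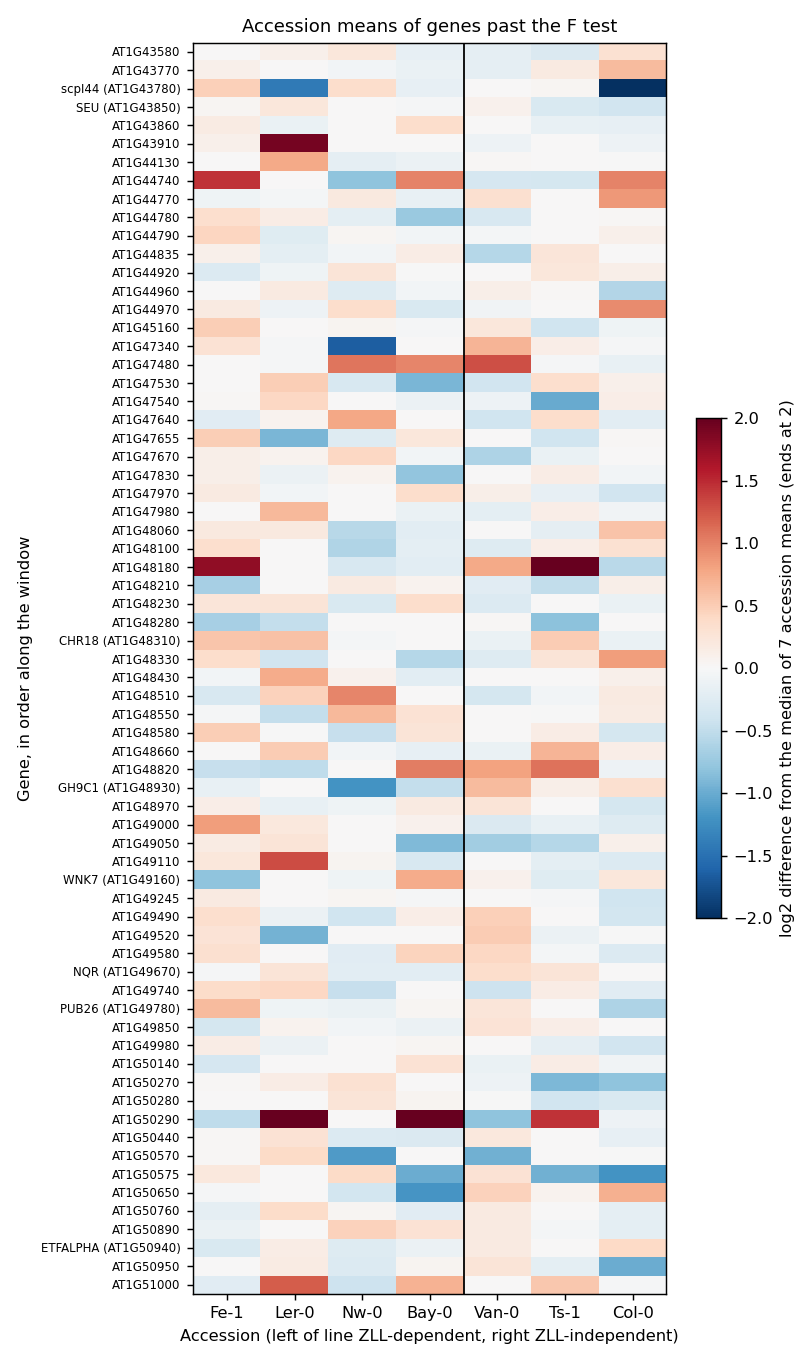
Accession means of the 68 window probe sets past the F test, in gene order, as the log2 difference from the median of the 7 accession means. ZLL-dependent accessions are left of the black line and ZLL-independent ones right of it, red is higher and blue lower, and colours end at a difference of 2. Single cells stand out in most rows, such as Ler-0 for AT1G43910 and Nw-0 for AT1G47340. In no row does the largest gap between accession means fall at the line, though for rows such as AT1G49000, AT1G50270 and GH9C1 the classes do not overlap.

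AT1G50290 had the widest range after scpl44, 3.25 or 9.54-fold between the highest and lowest accession means. It was at 8.69 in Ler-0, 8.29 in Bay-0 and 7.68 in Ts-1, at 5.72, 5.76 and 5.69 in Fe-1, 6.24 in Nw-0 and 5.44 in Van-0, and at 6.16, 6.03 and 6.23 in Col-0. Ler-0, Bay-0 and Ts-1 formed a high level and the others a low one, with both classes on each. Against Col-0 the signal was 5.87-fold higher in Ler-0, 4.42-fold in Bay-0 and 2.91-fold in Ts-1 (limma adjusted p of 1.12e-05, 3.82e-05 and 0.000191), and 1.33-fold lower in Fe-1 (limma adjusted p = 0.00617). Fe-1 and Ler-0 lay on opposite sides of Col-0, so their joint difference from it, 0.33, had a limma adjusted p of 0.799, and without Ler-0 it was -0.41. AT1G51000, at the end of the window and with a probe set marked as open to cross-hybridisation, had the same 3 accessions on top, with 5.78 in Ler-0, 5.26 in Bay-0 and 5.10 in Ts-1, and every other array between 4.15 and 4.69.

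Ler-0 alone was high for AT1G43910 and AT1G49110. AT1G43910 was at 6.47 in Ler-0 and between 4.26 and 4.94 on the other 10 arrays, 4.01-fold above Col-0 (limma adjusted p = 0.000929). AT1G49110 was at 8.85 in Ler-0 and between 7.06 and 7.87 elsewhere, 2.98-fold above Col-0 (limma adjusted p = 0.000941). Neither Ler-0 value was reached by any array of another accession. Each of these rests on the single Ler-0 array.

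Nw-0 alone was low for AT1G47340, at 7.84, with all other arrays between 9.37 and 10.17. It was 3.07-fold below Col-0 (limma adjusted p = 0.000164). AT1G44740 was lowest in Nw-0 too, at 4.61, then 5.07 in Ts-1, 5.09 in Van-0 and 5.42 in Ler-0, while Bay-0 was at 6.41, Fe-1 at 6.96, 6.83 and 6.82 and Col-0 at 6.32, 6.32 and 6.59. The Nw-0 signal was 3.49-fold below Col-0 (limma adjusted p = 0.000299), and the highest and lowest levels both belonged to dependent accessions, Fe-1 and Nw-0. AT1G50650 had its lowest value in Bay-0, 8.17, 3.73-fold below Col-0 at 9.86, 9.99 and 10.36 (limma adjusted p = 0.00704), with the other arrays between 8.90 and 9.81.

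AT1G47400 differed mainly within Fe-1. It was at 6.32, 4.51 and 7.55 in the Fe-1 replicates, at 3.69, 3.96 and 3.61 in the Col-0 replicates, and between 3.80 and 4.09 in the other accessions. All 3 Fe-1 arrays were above all others, but they differed from each other by up to 3.05, more than Fe-1 replicate 2 differed from Col-0. Fe-1 exceeded Col-0 by 2.38 ± 0.65 (SE), with a limma adjusted p of 0.0301, and the F test over accessions had an adjusted p of 0.163. BAN was at 5.07, 8.77 and 7.40 in the same Fe-1 replicates, and its part in this spread was not tested.

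**Figure D4:**
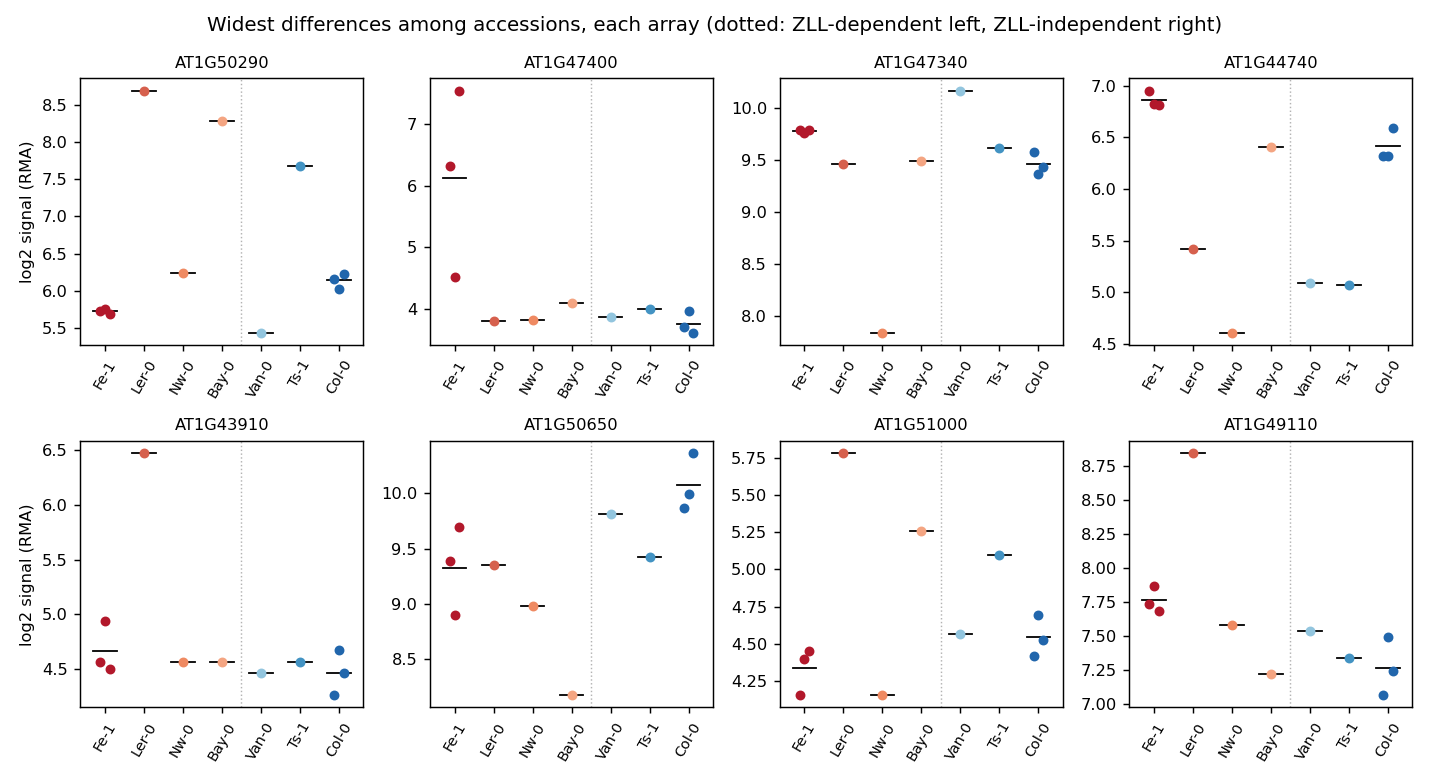
RMA log2 signal of each array (points) and the accession mean (lines) for 8 of the genes with the widest range among accessions (scpl44, AT1G48180 and GH9C1 are not plotted here). ZLL-dependent accessions are left of the dotted line, and each panel has its own scale, not starting at 0. Ler-0, Bay-0 and Ts-1 are high for AT1G50290 and AT1G51000, Ler-0 alone is high for AT1G43910 and AT1G49110, and the Fe-1 replicates are spread over 3.05 for AT1G47400.

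At the same threshold of 3-fold and adjusted p, single accessions differed from Col-0 in 1 to 3 window probe sets. There were 3 for Fe-1 (1.12%, background 1.40%), 3 for Ler-0 (1.12%, background 1.63%), 3 for Nw-0 (1.12%, background 0.936%), 3 for Bay-0 (1.12%, background 1.35%), 1 for Van-0 (0.372%, background 1.20%) and 2 for Ts-1 (0.743%, background 1.08%). scpl44 was among them for all 6. Ler-0 and Fe-1, the accessions grouped against Col-0, differed from each other in 4 probe sets (1.49%, background 1.93%): scpl44 and AT1G48180, lower in Ler-0 by 1.90 and 1.77, and AT1G43910 and AT1G50290, higher in Ler-0 by 1.81 and 2.97. Their limma adjusted p lay between 4.93e-06 and 0.0013.

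The following genes that set more than 1 accession apart were chosen after their values were seen. For AT1G48180 and AT1G48210 the largest gap set Fe-1 and Ts-1 apart from the other 5 accessions, and for AT1G48280 and CHR18 (AT1G48310) it set Fe-1, Ler-0 and Ts-1 apart from the other 4. Fe-1 and Ts-1 were high for AT1G48180 and CHR18 and low for AT1G48210 and AT1G48280. AT1G48280 was at 9.29, 9.50 and 9.58 in Fe-1, 9.65 in Ler-0 and 9.31 in Ts-1, and between 10.04 and 10.27 on all remaining arrays. AT1G48230, which lies between AT1G48210 and AT1G48280, had Fe-1, Ler-0 and Bay-0 high.

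AT1G50570 was low in Nw-0 (8.51) and Van-0 (8.68), where all other arrays were between 9.59 and 10.03. Its neighbour in the locus order, AT1G50575, described above, divided the accessions differently, with Fe-1 and Ler-0 beside Nw-0 and Van-0 at the high level. AT1G47480 was high in Nw-0 (5.98), Bay-0 (5.90) and Van-0 (6.21) and between 4.56 and 4.95 on the other arrays, and AT1G48820 was high in Bay-0 (6.10), Van-0 (5.89) and Ts-1 (6.16) and between 4.34 and 5.24 elsewhere. In each of these genes the high accessions came from both classes.

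Grouped by function, the window holds few measured members of each list. Over the chip 12.3% of the probe sets passed in Fe-1/Ler-0 against Col-0, and lists this small cannot be told from that share. Of the meristem, small RNA and patterning genes, 3 were measured with 4 probe sets and 1, SEU, passed in Fe-1/Ler-0 against Col-0, with the higher level in Fe-1/Ler-0. FU (AT1G50240), the kinase FUSED of cytokinesis, has 2 probe sets, with differences of -0.08 and 0.58 (limma adjusted p of 0.574 and 0.108). RR19 (AT1G49190), a response regulator of the kind that acts in cytokinin signalling, had a difference of -0.01 (limma adjusted p = 0.985), with arrays between 4.71 and 5.68 in Fe-1/Ler-0 and between 5.10 and 5.39 in Col-0. The list's median log2 difference was 0.23, against 0.06 over all probe sets.

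Of 4 cell cycle and DNA genes 1 passed, AT1G49980, higher in Fe-1/Ler-0 by 0.47 (limma adjusted p = 0.0171), a call lost when Fe-1 replicate 1 or 2, or Col-0 replicate 1 or 3, was left out (adjusted p up to 0.0715). UBC20, an E2 ubiquitin-conjugating enzyme, and BUB3.2, of the spindle checkpoint, had differences of 0.31 and 0.24 (limma adjusted p of 0.206 and 0.302), and AT1G48360 had -0.12. Their median was 0.28. Of 2 cell wall genes 1 was lower, GH9C1, while AT1G48750 had 0.28 (limma adjusted p = 0.128), and the median was -0.07. None of the 4 translation genes passed (median -0.13), among them ALATS, alanyl-tRNA synthetase, with -0.24 (limma adjusted p = 0.148) and AT1G48160 with -0.23 (limma adjusted p = 0.104). Nor did the single measured genes of the chloroplast (THX, a thioredoxin, 0.14), hormone (AT1G44830, 0.36), seed maturation (AT1G47980, 0.24) and receptor and defence (AT1G50180, -0.55) lists, with limma adjusted p between 0.117 and 0.386. No gene of the cytochrome P450 and membrane traffic lists was measured, and no member of any list passed between the ZLL classes. The chloroplast list does not hold ty2, the plastid thioredoxin described above, which passed in both comparisons.

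Further named genes of the window did not pass in Fe-1/Ler-0 against Col-0, but some of them differed in single accessions. SERPIN1, a serine protease inhibitor, OSB1, which binds single-stranded DNA in organelles, PMEAMT, a methyltransferase of phosphocholine synthesis, and SIRB, of sirohaem synthesis, had differences between -0.10 and 0.01 in Fe-1/Ler-0 against Col-0 (limma adjusted p between 0.456 and 0.964). UGT80B1 (TRANSPARENT TESTA 15), a sterol glucosyltransferase of the seed, had -0.22 (limma adjusted p = 0.335). Its single Ler-0 array was lowest at 7.71 and below Col-0 taken singly (limma adjusted p = 0.0169), but UGT80B1 did not pass over the 7 accessions (F test adjusted p = 0.0841). NQR, a quinone reductase-like protein, differed over the 7 accessions (F test adjusted p = 0.017), with Ler-0, Van-0 and Ts-1 at 8.75 to 8.84 and the others at 8.27 to 8.50, but had a difference of only 0.04 in Fe-1/Ler-0 against Col-0. The strongest signals of the window, AT1G48830 (13.15 to 13.36 over all arrays), AT1G47540, AT1G50110, ALATS and AT1G50920, passed neither comparison. AT1G47540 was at 11.92 in Ts-1 and between 12.79 and 13.33 elsewhere, and differed over the 7 accessions (F test adjusted p = 0.00132).

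Along the window the genes that passed were spread out, with none in 1 stretch. In Fe-1/Ler-0 against Col-0 (background 12.3%), 9 of 59 probe sets passed from AT1G43560 to AT1G44990, 0 of 16 from AT1G45000 to AT1G46912, 2 of 40 from AT1G47280 to AT1G47980, 9 of 51 from AT1G48010 to AT1G48980, 9 of 54 from AT1G49000 to AT1G49980 and 6 of 49 from AT1G50000 to AT1G51000. The stretch from AT1G45000 had 6 of 16 at an unadjusted limma p under 0.05 (37.5%, background 29.1%) and 1 of 16 past the F test (background 31.0%). Of 8 pairs of neighbouring members that both passed, 2 had the same direction, AT1G49000 with AT1G49010 and AT1G50270 with AT1G50280, and 6 had opposite directions. For scpl44 the neighbour AT1G43770 was one of these, lower by 0.56 where scpl44 was higher by 3.47. Neighbouring members can have unmeasured genes between them, and such pairs were not counted over the chip.

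Signal was low for many members. For 77 probe sets (28.6%, and 19.9% over the chip) all 7 accession means were below 4.92, the lowest lower quartile of any array. Among the 26 pseudogene probe sets, 19 (73.1%) were that low and none passed any of the 3 tests with limma, with adjusted p of at least 0.0782 in Fe-1/Ler-0 against Col-0 and at least 0.0654 in the F test. At an unadjusted p under 0.05, 3 of them (11.5%) passed in each of the 3 tests, where the background was 29.1% in Fe-1/Ler-0 against Col-0, 17.4% between the classes and 44.1% in the F test. Among the 242 of protein-coding genes 57 (23.6%) were that low. The first stretch, from AT1G43560 to AT1G44990, held 18 of the 26 pseudogene probe sets and 25 of the 77 low ones. Calls were rare among low members, but the definition of low limits how far these can differ. It leaves out any probe set whose mean reached 4.92 in even 1 accession. Of the 77, 1 passed in Fe-1/Ler-0 against Col-0 and 1 the F test (AT1G48660, singled out after its values were seen), against 34 and 67 of the other 192. Over the chip 4.39% of the probe sets that low passed the F test, against 37.6% of the rest.

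Other genes of the window were not analysed here, WOX4, AGO1 and TOR among them, because the annotation does not list a probe set for them. CYP705A27 (AT1G50520), a cytochrome P450 that the study lists near FHE1, is no member by the rule, since the annotation leaves its probe set unnamed. That probe set was at 3.64, 3.71 and 3.80 in Fe-1 and 3.60 in Ler-0, against 5.23, 5.66 and 5.85 in Col-0, a log2 difference of -1.89 ± 0.14 (SE), with a limma adjusted p of 0.000471. The groups were far apart, and Nw-0 (5.58), Bay-0 (5.23), Ts-1 (5.58) and Van-0 (4.86) were all nearer to Col-0, so it too did not follow the ZLL classes.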

How the data were processed

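The authors hybridised RNA of torpedo-stage embryos to ATH1 arrays, normalised them with RMA (background correction, quantile normalisation, summary over probes) and deposited log2 values per probe set. These were used unchanged; the RMA version is not given in the sources used here, and 64 chip controls were left out. An array has no read depth, so the number of arrays limits the precision. Titles call the arrays of Fe-1 and Col-0 biological replicates.

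Group differences were fitted in R 4.3.3 with limma 3.58.1 (lmFit, eBayes), with Benjamini-Hochberg adjustment over all 22746 probe sets: Fe-1/Ler-0 against Col-0 (7 arrays), ZLL-dependent against ZLL-independent (11 arrays), and 1 mean per accession (F test, contrasts with Col-0). Calls needed 3-fold and an adjusted p under 0.05. The fits were tested on simulated data in which arrays varied independently around 1 mean per probe set, apart from added changes. That test does not cover the correlation of arrays within an accession.

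Genes were named from the platform annotation (13513 probe sets with 1 gene, 503 with several, 8730 unlisted) and, by Entrez ID, the TAIR10.1 gene table (13436 matched); 16 probe sets shared by several genes, at least 1 in the window, were left out. Coordinates were not used. The members, the functional lists and the naming rule (called members, widest ranges, strongest signals, list members, genes the study lists) were chosen with earlier results of these data known. Genes named for an adjusted p under 0.05 alone, for their symbol or for how they divide the accessions were chosen after their values were seen. Alternatives were another normalisation, filter, variance model or fold limit, the replicate number or accession as a block, accession means and leaving out each array. Leaving out the arrays highest in BAN was added after the data were seen. Python 3.11.15 and matplotlib 3.10.9 drew the plots.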

Additional observations from a re-analysis of the deposited data

Results flagged for a closer look

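An array stood apart from the rest of its group by Dixon's test in 33 of 207 groups, over the 69 probe sets that passed a comparison, carry a symbol or were chosen by the rule for named genes. Chance alone marks about 1 in 20 groups, but the groups mix accessions and some genes were chosen for a wide range among accessions, so the count cannot be read against that share. In Fe-1/Ler-0 the array apart was Ler-0 for scpl44 (8.02, the others 9.76 to 10.04), AT1G44740 (5.42, the others 6.82 to 6.96), AT1G47340 (9.47), OSB1 (AT1G47720, 8.14), AT1G47980 (5.21), AT1G48180 (5.30, the others 7.02 to 7.16), AT1G49110 (8.85), NQR (AT1G49670, 8.75), PUB26 (AT1G49780, 7.70), BUB3.2 (AT1G49910, 8.52), AT1G50290 (8.69, the others 5.69 to 5.76) and ETFALPHA (AT1G50940, 10.02), and Fe-1 replicate 3 for AT1G49010 (9.38). Among ZLL-dependent arrays it was Ler-0 for AT1G43910 (6.47), AT1G47540 (13.33), AT1G47980 (5.21) and UBC20 (AT1G50490, 11.39), Nw-0 for AT1G44770 (10.18), AT1G47340 (7.84), AT1G48230 (10.15) and AT1G50280 (8.47), Bay-0 for AT1G50575 (10.05) and Fe-1 replicate 3 for AT1G48830 (13.15). Among ZLL-independent arrays it was Van-0 for SEU (AT1G43850, 10.22), AT1G50270 (6.61) and AT1G50575 (11.34), Ts-1 for AT1G47540 (11.92), AT1G48280 (9.31) and CHR18 (AT1G48310, 9.59), Col-0 replicate 3 for ty2 (AT1G43560, 9.41), AT1G48360 (8.14) and AT1G49010 (8.76), and Col-0 replicate 1 for AT1G50180 (6.73).

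Ler-0 differed from Fe-1, with which it was grouped, in 15 of the same 69 probe sets by a limma contrast (adjusted p under 0.05). Over the whole window 32 of 269 passed (11.9%, background 15.6%). Ler-0 was lower for scpl44 (AT1G43780, -1.90, adjusted p = 0.000265), AT1G48180 (-1.77, 5.12e-05), AT1G44740 (-1.45, 0.000485), PUB26 (AT1G49780, -0.72, 0.0205), AT1G49000 (-0.62, 0.0148), AT1G48580 (-0.50, 0.0338) and UGT80B1 (AT1G43620, -0.47, 0.0339). It was higher for AT1G50290 (2.97, 4.93e-06), AT1G43910 (1.81, 0.0013), AT1G51000 (1.45, 0.000831), AT1G49110 (1.08, 0.00476), WNK7 (AT1G49160, 0.80, 0.0115), AT1G47980 (0.64, 0.0037), ETFALPHA (AT1G50940, 0.46, 0.0184) and AT1G47540 (0.39, 0.0313). All of these rest on 1 Ler-0 array.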

How the results depend on the processing

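The counts of Fe-1/Ler-0 against Col-0 depended on how arrays and accessions were treated more than on normalisation. The 2 calls became 5 at 2-fold, 1 with the replicate number as a block, 1 with accession as a random block, 0 without the arrays highest in BAN, and 1 to 3 without single arrays (3 without Ler-0, 1 without any Fe-1 or Col-0 array). The 35 probe sets at an adjusted p under 0.05 became 17 with the replicate block, 7 with the random block, 5 without the arrays highest in BAN, and 13 to 71 without single arrays, 71 without Ler-0 and 13 to 20 without an Fe-1 or Col-0 array. Between ZLL classes the 0 calls became 1 with an unadjusted p and stayed at 0 without any single array. The 2 at an adjusted p under 0.05 became 1 with the replicate block, 1 without the arrays highest in BAN, 0 with the random block, 0 with accession means, and 0 to 12 without single arrays (12 without Van-0, 4 without Ler-0 and 4 without Nw-0). The F test gave 56 to 76 without single arrays, for 68 with all. The other normalisations, filters and the variance model kept these counts within 1.5 times. Without Ler-0, AT1G50290 turned to -0.41 (limma adjusted p = 0.00617), and it reached 0.59 without Fe-1 replicate 3. The cause of these changes was not tested, and the counts in these other settings were not made over the chip. Deviations of Fe-1 and Col-0 arrays with the same number correlated at 0.231, 0.0354 and 0.112 over probe sets. Those of arrays with different numbers correlated between -0.151 and 0.0372. The titles state no pairing, so the main fits did not use the numbers, and whether same-numbered arrays share a batch was not tested. Of the 77 members with low signal 1 passed the F test, against 67 of the other 192.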
